A study of Mus musculus with 2 samples.

Results

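Homeobox genes and related transcription factors that mark neuronal identity were examined in nuclei of the mouse thalamus after sham surgery or cortical injury. The members were chosen by symbol alone, as the genes of both count tables named Lhx, Pax, Dlx, Meis, Pbx, Irx, Otx, Pou or Nkx followed by a family number, with the numbered genes of the sine oculis family. The rule took 73 of the 32285 genes of the tables, with 6 Dlx, 6 Irx, 8 Lhx, 3 Meis, 14 Nkx, 2 Otx, 9 Pax, 4 Pbx, 15 Pou and 6 sine oculis genes. Over the nuclei kept, 50 members had at least 50 UMIs (unique molecular identifiers, each counted as 1 RNA molecule), 18 had between 1 and 49, and 5 (Nkx2-3, Nkx2-5, Nkx3-2, Pax4 and Pou4f2) had none in either table.

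Homeodomain proteins bind short AT-rich DNA motifs, and neurons of different regions and transmitter types express different sets of them. The sets are laid down when the diencephalon is patterned, and many members stay on in the adult, where they maintain the genes of a mature cell type. Pbx and Meis proteins belong to the TALE group, which binds DNA together with other homeodomain proteins, Lhx proteins carry LIM domains beside the homeodomain, and Pou proteins pair a POU-specific domain with it. In the thalamus Lhx2 and Lhx9 are known from excitatory relay neurons, Pou4f1 (Brn3a) from the habenula, and Six3, Meis2 and the Dlx genes from forebrain GABAergic neurons.

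The study profiled single nuclei of the ipsilateral thalamus with droplet-based sequencing of the 3′ ends of RNA. Nuclei were sorted and pooled from 4 mice for each of 2 libraries, 1 from sham-operated mice and 1 from mice with cortical ablation injury, a surgical removal of sensory and motor cortex. All mice were female C57BL/6J, operated at 3 months of age, and the tissue was taken 21 days later. With 1 pooled library per group no test between sham and injury was possible, so the intervals given are exact 95% intervals that cover counting error only, and differences between mice are not in them.

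The sham table held 16390 barcodes and 137850696 UMIs, and 21828 barcodes and 180106314 UMIs were in the injury table, with medians of 7190 and 6810 UMIs per nucleus kept and with 101 barcode sequences found in both tables. Clustering without the members and without 70 other identity factors gave 24 neuron clusters, 21 glutamatergic and 3 GABAergic, each called here by 2 of its leading genes. Of these, 21 held at least 50 nuclei in each library and carry the comparison. The other 3 were found almost only in the injury library, and are GABAergic Col6a3/Myo5b (2 sham and 427 injury nuclei), cortical glutamatergic-like Npr3/Ccdc3 (0 and 280) and dentate granule-like Dsp/Stra6 (0 and 220). Differences in dissection and effects of the injury cannot be told apart for them. Tcf7l2, a defining factor of the thalamus and habenula, reached 20 CPM (UMIs of the gene per 1000000 UMIs of the cluster) in 20 of the 21 clusters in sham and in 18 in injury. Its level ran from 14.1 to 814 CPM in sham and from 13.2 to 841 CPM in injury, so reaching 20 CPM does not place a cluster in the thalamus or habenula. Ttc6/Col11a1, with the most nuclei over both libraries (1917 sham and 2108 injury), was named subthalamic or posterior hypothalamic-like.

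A member was called on in a cluster at 20 CPM or more. By that threshold 23 of the 73 members were on in at least 1 of the 21 clusters in either library, and 50 never were. Over all genes, 10148 of 32285 were on in at least 1 of these clusters, a share close to that of the members. The sham library held 184 pairs of a member and a cluster that were on, and the injury library 179. The clusters carried 17 different combinations in sham and 19 in injury, between 5 and 14 members in a cluster. By family, 3 of 4 Pbx, 3 of 3 Meis, 4 of 8 Lhx, 6 of 15 Pou, 3 of 6 Irx, 2 of 2 Otx, 1 of 9 Pax and 1 of 6 sine oculis genes were on somewhere, and 0 of 6 Dlx and 0 of 14 Nkx genes. The members were kept out of the genes used for clustering, but the clusters come from the same nuclei, so differences between clusters are described here and not tested.

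**Figure D1:**
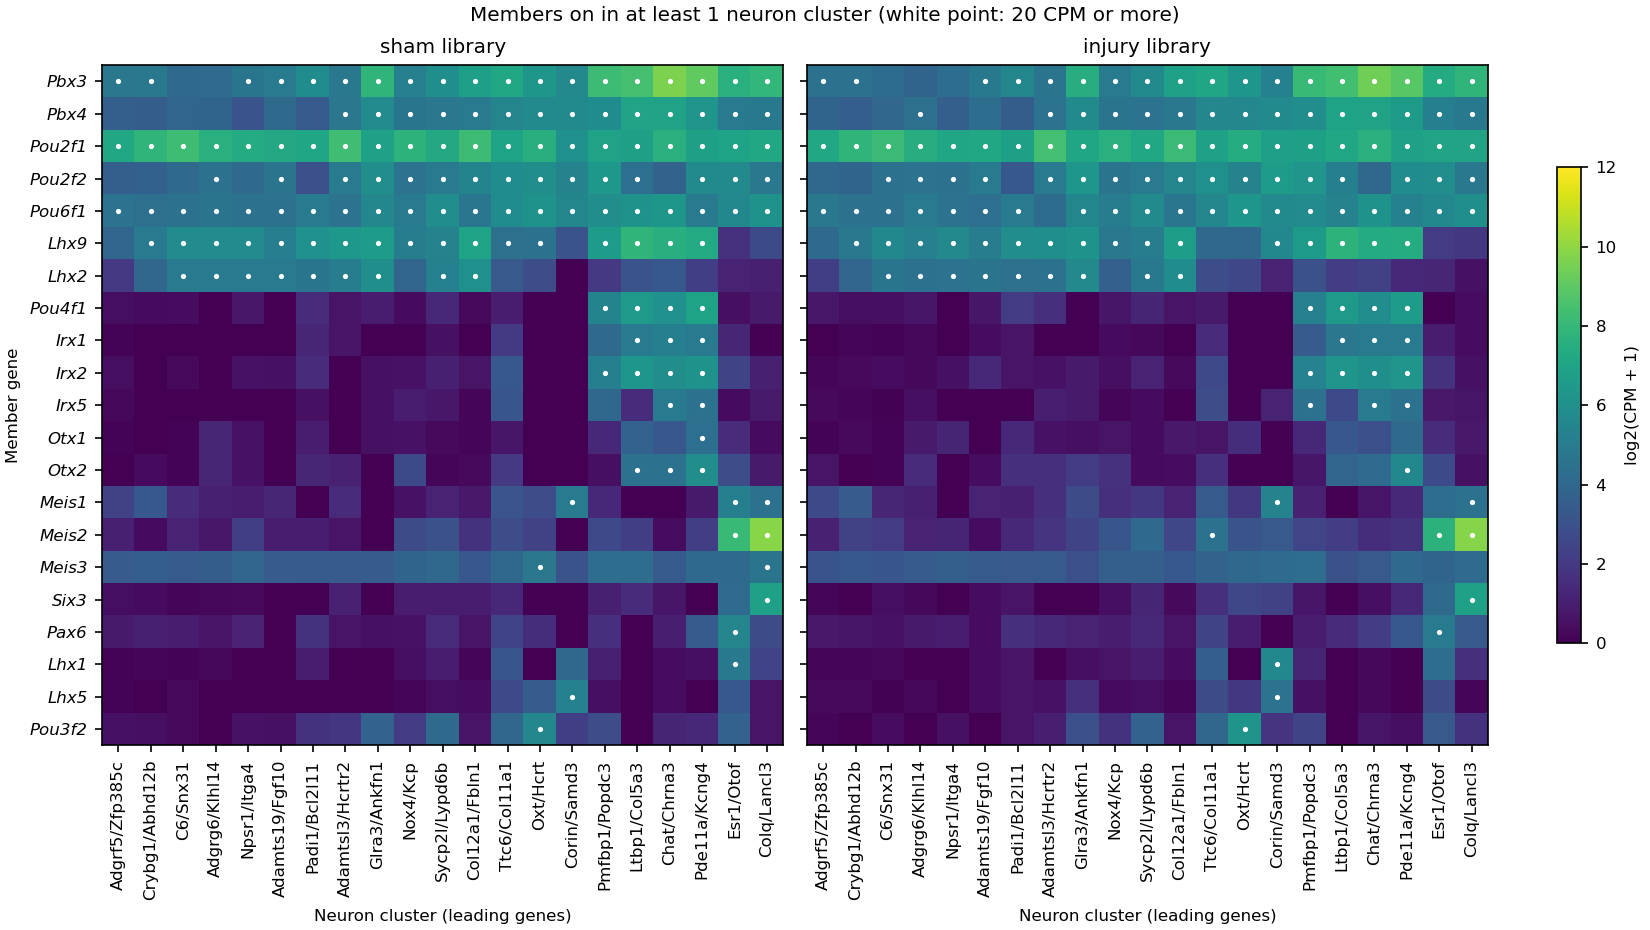
Levels of 21 of the 23 members that were on in at least 1 neuron cluster, as log2(CPM + 1) in colour, with members in rows and the 21 neuron clusters in columns, for the sham library on the left and the injury library on the right. White points mark levels of 20 CPM or more; the Pou2f1 row has a point in every cluster, while Pou4f1 and Irx2 have points only in the 4 clusters from Pmfbp1/Popdc3 to Pde11a/Kcng4 and Six3 only in Colq/Lancl3.

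Widespread members included TALE and POU genes. Pou2f1 (Oct1), a broadly expressed POU factor, was on in all 21 clusters in both libraries. Pou6f1 was on in 21 clusters in sham and 20 in injury, Pbx3, a TALE cofactor of other homeodomain proteins, in 19 and 18, Pou2f2 in 15 and 17 and Pbx4 in 14 and 15. Pbx3 was highest in Chat/Chrna3, at 804 CPM in sham and 682 CPM in injury, against medians over clusters of 62.0 and 51.9 CPM. Pou2f1 overlaps Cd247 on the opposite strand, and Cd247 was among the leading genes of Adamtsl3/Hcrtr2, where Pou2f1 was highest (323 and 342 CPM). The effect of this overlap on the counts was not tested. Meis3, a TALE gene, was on in 2 clusters in sham (26.2 CPM in Oxt/Hcrt and 23.9 CPM in Colq/Lancl3) and in 0 in injury (15.4 and 17.03 CPM), with a lowest level of 7.44 CPM in sham and 6.62 CPM in injury. In Oxt/Hcrt Meis3 rested on 13 sham and 16 injury UMIs, with a log2 ratio of injury over sham of -0.76 (-1.91 to 0.41).

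The Lhx genes divided the glutamatergic clusters. Lhx9 (ENSMUSG00000019230, GRCm38 chromosome 1, 138825186 to 138848577, minus strand) was on in 17 clusters in sham and 16 in injury, and Lhx2 (ENSMUSG00000000247, chromosome 2, 38339281 to 38369733, plus strand) in 9 and 9, each of which also had Lhx9 on. These 9 were C6/Snx31, Sycp2l/Lypd6b, Col12a1/Fbln1, Adgrg6/Klhl14, Npsr1/Itga4, Glra3/Ankfn1, Adamts19/Fgf10, Padi1/Bcl2l11 and Adamtsl3/Hcrtr2. Lhx2 was highest in Col12a1/Fbln1, at 64.4 CPM in sham (95% interval 59.3 to 69.8, 593 UMIs) and 56.3 CPM in injury (51.5 to 61.5, 498 UMIs), and next in Glra3/Ankfn1, at 61.8 CPM (51.7 to 73.3) and 48.8 CPM (40.4 to 58.5), so that the intervals of the first and the next cluster overlapped. The thalamic relay-like cluster Adgrf5/Zfp385c had neither gene on in either library, with Lhx2 at 2.92 CPM in sham and 3.73 CPM in injury and Lhx9 at 14.2 CPM (12.1 to 16.6) and 16.3 CPM (14.2 to 18.6). It was the only compared cluster to which the naming rule gave that name. The unnamed C6/Snx31 and Crybg1/Abhd12b share leading genes with it (C6 and Tspear, and Prkcd and Abhd12b) and had Lhx9 on. The values of Adgrf5/Zfp385c therefore do not stand for relay neurons in general. Other glutamatergic clusters had neither gene on in 1 library, namely Corin/Samd3 in sham (Lhx9 at 7.44 CPM) and, in injury, Ttc6/Col11a1 (15.3 CPM, against 20.2 CPM in sham) and Oxt/Hcrt (15.4 CPM, against 22.2 CPM). Lhx9 in Oxt/Hcrt had 11 sham and 16 injury UMIs, with a log2 ratio of injury over sham of -0.52 (-1.72 to 0.73). Crybg1/Abhd12b had Lhx9 on without Lhx2 in both libraries, with Lhx9 at 28.9 and 26.6 CPM and Lhx2 at 14.6 and 14.2 CPM. Nox4/Kcp, Chat/Chrna3, Pmfbp1/Popdc3, Pde11a/Kcng4 and Ltbp1/Col5a3 likewise had Lhx9 on without Lhx2 in both. Both Lhx genes were low in the GABAergic clusters, where Lhx9 in Esr1/Otof measured 2.25 CPM in sham and 3.23 CPM in injury.

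A second combination belonged to 4 clusters that shared Pou4f1 and Irx2: the medial habenula-like clusters Chat/Chrna3 and Pde11a/Kcng4, and the clusters Ltbp1/Col5a3 and Pmfbp1/Popdc3, which the marker lists did not name. Pou4f1 (ENSMUSG00000048349) lies on chromosome 14 at 104461676 to 104467999 on the minus strand, and Irx2 (ENSMUSG00000001504), an Iroquois homeobox gene, on chromosome 13 at 72628820 to 72634198 on the plus strand. Their promoters are shown because these genes were on in all 4 clusters and in no other of the 21. Each is the 250 bases before the RefSeq start (GRCm38.p6), at chr14:104468000-104468249 and chr13:72628570-72628819, which also end at the start of the gene in the GENCODE annotation. Capitals mark a TGACAG match on either strand, a core motif of TALE proteins.
Pou4f1: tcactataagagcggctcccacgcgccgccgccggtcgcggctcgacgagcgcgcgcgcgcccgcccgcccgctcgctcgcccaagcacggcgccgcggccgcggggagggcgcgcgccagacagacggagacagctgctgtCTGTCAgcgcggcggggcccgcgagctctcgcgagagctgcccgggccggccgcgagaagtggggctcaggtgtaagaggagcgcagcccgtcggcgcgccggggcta
Irx2: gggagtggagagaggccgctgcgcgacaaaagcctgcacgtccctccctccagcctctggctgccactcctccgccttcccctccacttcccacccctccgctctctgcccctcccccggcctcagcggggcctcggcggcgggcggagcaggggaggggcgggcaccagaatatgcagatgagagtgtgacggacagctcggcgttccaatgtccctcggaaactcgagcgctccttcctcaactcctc

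Pou4f1 was highest in Pde11a/Kcng4, at 122 CPM in sham (109 to 137, 298 UMIs) and 97.5 CPM in injury (85.7 to 110, 248 UMIs). In Ltbp1/Col5a3 it measured 89.8 CPM in sham and 85.4 CPM in injury, in Chat/Chrna3 67.1 and 57.9 CPM, and in Pmfbp1/Popdc3 41.9 and 37.0 CPM. The interval of Ltbp1/Col5a3 overlapped those of Pde11a/Kcng4 and Chat/Chrna3, which did not overlap each other, and in the other clusters Pou4f1 was under the threshold in both libraries. A Pou4f1 UMI was found in 41.3% of Pde11a/Kcng4 nuclei in sham (36.9 to 45.8, exact binomial) and 38.2% in injury (33.8 to 42.7), against 0.350% and 0.486% of nuclei in C6/Snx31, whose nuclei were deeper (medians of 9507 and 9776 UMIs against 4579 and 5109). After each nucleus was thinned to 3000 UMIs, with shallower nuclei left out, the shares were 32.9% and 27.8% in Pde11a/Kcng4 and 0.153% and 0.109% in C6/Snx31.

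Irx2 followed the same 4 clusters, at 77.0 CPM in sham and 76.7 CPM in injury in Ltbp1/Col5a3, 70.7 and 75.8 CPM in Pde11a/Kcng4, 60.7 and 62.2 CPM in Chat/Chrna3, and 35.5 and 38.5 CPM in Pmfbp1/Popdc3. The 3 clusters above 60 CPM overlapped in their intervals, and Pmfbp1/Popdc3 lay below them. The other Iroquois genes separated the clusters further. Irx1 was on in the first 3 of these clusters in both libraries, at 26.1 to 35.0 CPM, and measured 16.7 and 10.2 CPM in Pmfbp1/Popdc3. Irx5 was on in Chat/Chrna3 (30.4 and 28.7 CPM) and Pde11a/Kcng4 (22.2 and 21.6 CPM) but had only 1 UMI in sham and 3 in injury in Ltbp1/Col5a3 (1.83 CPM, 0.0464 to 10.2, and 5.23 CPM, 1.08 to 15.3). In Pmfbp1/Popdc3 it was under the threshold in sham (15.2 CPM) and on in injury (21.6 CPM). Otx2, a homeobox gene of the anterior brain, set Pde11a/Kcng4 apart from Chat/Chrna3, at 59.6 CPM in sham (50.3 to 70.1) and 47.9 CPM in injury (39.8 to 57.2) against 21.0 CPM (16.1 to 26.9) and 17.4 CPM (14.0 to 21.5). Otx1 was also highest in Pde11a/Kcng4, at 20.1 and 16.9 CPM, and Lhx9 reached its highest levels in Ltbp1/Col5a3, at 227 CPM (189 to 271) and 212 CPM (177 to 254).

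The GABAergic clusters had Meis2 on and Lhx2 and Lhx9 off. Six3 (ENSMUSG00000038805), a homeobox gene of the developing forebrain, lies on chromosome 17 at 85613608 to 85629302 on the plus strand, and Meis2 (ENSMUSG00000027210), a TALE gene, on chromosome 2 at 115863064 to 116065839 on the minus strand. Both were highest in the reticular-like cluster Colq/Lancl3, and their promoters are shown because they set it apart from the glutamatergic clusters. The RefSeq windows (250 bases, GRCm38.p6, chr17:85620584-85620833 and chr2:116064620-116064869, with capitals as above) end at starts that lie 7226 and 1220 bases inside the bounds of the GENCODE genes.
Six3: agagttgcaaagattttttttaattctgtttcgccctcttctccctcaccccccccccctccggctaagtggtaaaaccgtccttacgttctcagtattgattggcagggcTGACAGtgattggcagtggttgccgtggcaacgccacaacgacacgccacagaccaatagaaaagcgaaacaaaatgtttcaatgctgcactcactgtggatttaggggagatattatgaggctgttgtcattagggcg
Meis2: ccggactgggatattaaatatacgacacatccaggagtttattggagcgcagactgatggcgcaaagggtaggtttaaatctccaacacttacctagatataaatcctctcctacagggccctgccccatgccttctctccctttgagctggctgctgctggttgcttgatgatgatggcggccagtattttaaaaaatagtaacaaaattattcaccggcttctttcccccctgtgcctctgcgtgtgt

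Six3 measured 114 CPM in Colq/Lancl3 in both libraries (104 to 125, 429 UMIs, in sham and 106 to 122, 729 UMIs, in injury). Esr1/Otof was next, at 17.2 and 16.6 CPM, and under the threshold. A Six3 UMI was found in 49.8% of Colq/Lancl3 nuclei in sham (45.2 to 54.4) and 49.5% in injury (46.0 to 53.0), against 0.150% and 0.432% in C6/Snx31, and after thinning in 25.8% and 27.3% against 0.102% and 0.109%. Six3 overlaps Six3os1 on the opposite strand and 5 gene models on its own. The effect of these overlaps on its counts was not tested.

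Meis2 measured 933 CPM in Colq/Lancl3 in sham (902 to 964) and 908 CPM in injury (885 to 932), and 273 CPM (263 to 284) and 209 CPM (202 to 216) in Esr1/Otof. The latter cluster was mixed for Meis2, which was detected in 26.4% of its nuclei in sham and 20.4% in injury, against 87.8% and 88.6% in Colq/Lancl3. Esr1/Otof instead held the highest level of Pax6, a paired-box homeobox gene, at 42.9 CPM (39.0 to 47.1) in sham and 30.3 CPM (27.7 to 33.0) in injury. Pax3, known from the dorsal neural tube, was also highest in Esr1/Otof, at 12.3 and 14.9 CPM, but in only 2.56% and 1.96% of nuclei. The Dlx genes, which specify forebrain GABAergic neurons, were detected in both GABAergic clusters below the threshold: Dlx1 at 13.8 and 17.4 CPM in Esr1/Otof and 10.6 and 11.1 CPM in Colq/Lancl3, with a median over the 21 clusters of 0.109 CPM in sham and 0.210 CPM in injury.

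**Figure D2:**
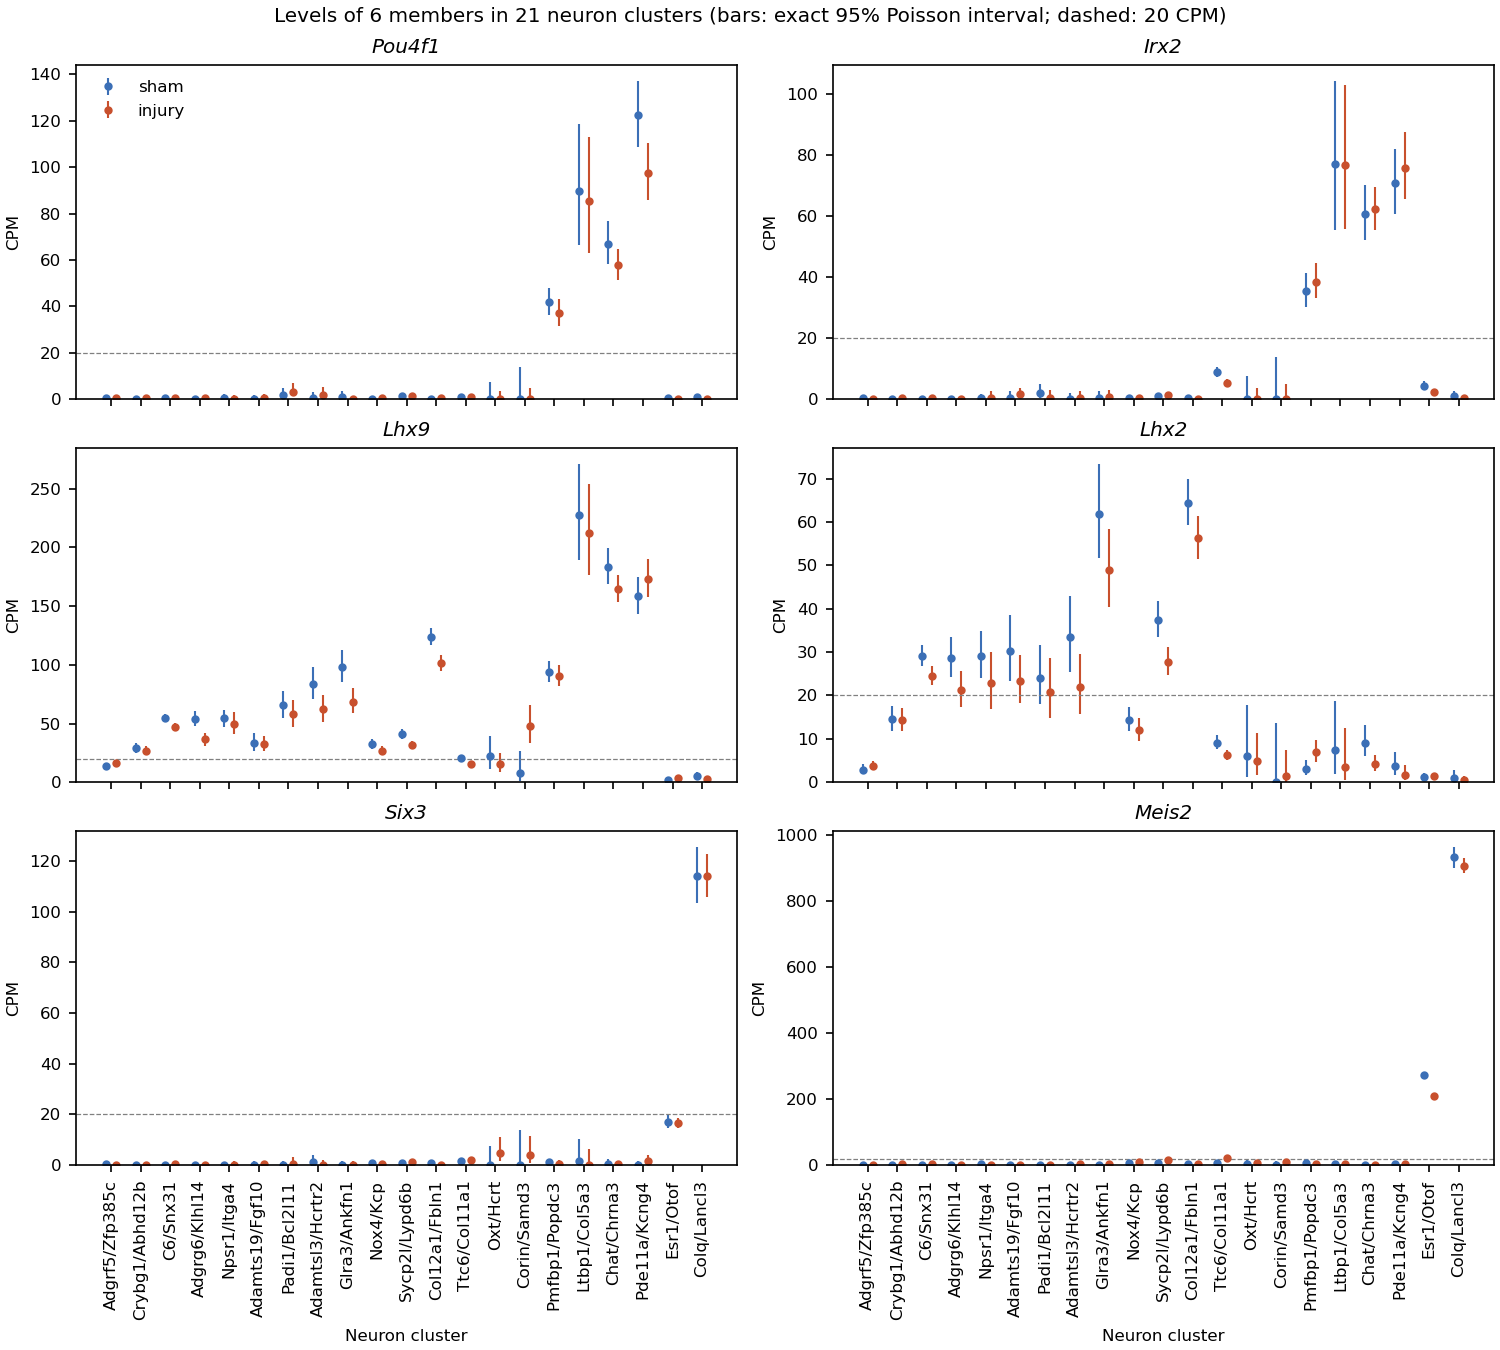
Levels in CPM (vertical axis, starting at 0) of 6 members in the 21 neuron clusters (horizontal axis), sham in blue and injury in red, with exact 95% Poisson intervals and a dashed line at 20 CPM. Pou4f1 and Irx2 rise in the same 4 clusters, Lhx2 is highest in Col12a1/Fbln1 and Glra3/Ankfn1, and Six3 and Meis2 are highest in Colq/Lancl3, where both libraries show Six3 at 114 CPM.

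Smaller clusters had combinations of their own. Oxt/Hcrt (71 sham and 145 injury nuclei, led by hypothalamic peptide genes) was the only cluster with Pou3f2 (Brn2) on, a POU factor of hypothalamic neuroendocrine neurons, at 46.4 CPM in sham (29.4 to 69.6, 23 UMIs) and 73.3 CPM in injury (57.8 to 91.8, 76 UMIs). Corin/Samd3 (69 and 165 nuclei) was the only cluster with Lhx5 on, at 37.2 CPM in sham (17.9 to 68.5, 10 UMIs) and 22.4 CPM in injury (13.1 to 35.9, 17 UMIs), beside Meis1 at 29.8 and 39.6 CPM. It was classed as glutamatergic, with Slc17a6 at 152 CPM over both libraries, but Gad1 was also present at 50.68 CPM. In the other compared glutamatergic clusters Gad1 was at most 11.65 CPM (Pde11a/Kcng4). Lhx1, a close relative of Lhx5, was on in Corin/Samd3 in injury (47.5 CPM, 33.3 to 65.8) and under the threshold in sham (14.9 CPM, 4.06 to 38.1, 4 UMIs). Lhx9 in that cluster measured 7.44 CPM in sham (0.901 to 26.9, 2 UMIs) and 47.5 CPM in injury. In Corin/Samd3 13.0% of all genes with at least 50 UMIs were past 2-fold. Marker lists of other cell types moved there too. The 8 dentate granule markers summed to 5051 CPM in sham and 1565 CPM in injury (4 of 8 higher). Their sum was high in other neurons as well, at 4776 and 4227 CPM in Ttc6/Col11a1, so it was not particular to dentate cells. The 7 striatal markers summed to 112 and 58.1 CPM (3 of 7 higher), and 7 oligodendrocyte markers to 63.3 and 110.9 CPM (6 of 7 higher). Among the other identity factors Ebf3 measured 130 and 639 CPM. The part of the make-up of this cluster in its member values was not tested.

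Some members were higher in non-neuronal classes than in neurons. In oligodendrocyte-like nuclei Nkx6-2, a homeobox gene of mature oligodendrocytes, measured 55.3 CPM in sham and 48.4 CPM in injury, against 0.593 and 0.466 CPM in the glutamatergic class. It overlaps Inpp5a on the opposite strand. Nkx2-2, which acts in oligodendrocyte differentiation, measured 48.3 and 64.4 CPM in oligodendrocyte precursor-like nuclei, 29.4 and 23.5 CPM in oligodendrocyte-like nuclei, and 0.445 and 0.492 CPM in the glutamatergic class. Pou3f1 (Oct6) reached 39.0 and 38.2 CPM in the precursor-like nuclei, against 15.7 and 19.2 CPM in Chat/Chrna3, and Pou3f3 (Brn1) 52.9 and 42.7 CPM in the oligodendrocyte-like nuclei. Meis1 was high in oligodendrocyte-like nuclei (218 and 211 CPM) and in astrocyte-like nuclei (256 and 206 CPM), and was on in neurons too, at up to 35.6 CPM in sham (Esr1/Otof) and 39.6 CPM in injury (Corin/Samd3).

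Astrocyte-like nuclei combined Pax6 (61.7 CPM in sham and 65.6 CPM in injury) with Otx2 (63.9 and 48.4 CPM), Pou3f2 (79.3 and 51.8 CPM), Pou3f3 (92.6 and 58.7 CPM), Pou3f4 (22.0 and 23.5 CPM) and Irx5 (30.9 and 34.5 CPM). This class held 209 sham and 512 injury nuclei. In it 7 astrocyte markers reached 10 CPM, and the list had a mean log2 fold of 5.38 over other clusters. By the naming rule it kept its name narrowly. None of the markers was among its 10 leading genes, and its depth was 0.340 of the library's median. A cluster led by Inpp5d and Ly86 held 34 sham and 172 injury nuclei. It was left unnamed by that rule, with a median depth of 0.182 of its library's and no marker among its 10 leading genes. The microglia list had a mean log2 fold of 5.45 in it, with 7 markers at 10 CPM or more. Pou2f2 (Oct2), a POU factor of immune cells, measured 239 CPM (150 to 362, 22 UMIs) and 230 CPM (183 to 284, 84 UMIs) in this cluster. These levels were above every neuron cluster (highest 96.4 CPM, in Corin/Samd3 in injury).

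Members that lie side by side in the genome were compared across the 21 clusters, where start sites were within 500 kb. Dlx1 and Dlx2, 18.6 kb apart on chromosome 2, had Pearson r = 0.952 in sham and 0.946 in injury over the clusters, and Dlx5 and Dlx6, 18.8 kb apart on chromosome 6, had r = 0.990 and 0.922. These 4 genes were near 0 outside the GABAergic clusters, so the values rest mainly on 2 clusters. Irx5 and Irx6, 316.7 kb apart on chromosome 8, had r = 0.722 and 0.679, with 35 UMIs of Irx6 in all. Six2, 74.7 kb from Six3, had 11 UMIs against 1762 of Six3 over the clusters, and Nkx2-4, 108.8 kb from Nkx2-2, had 58 against 186. The points of each value share library, depth and cluster, and no p is given.

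Stability after injury was compared first by the on-calls. Nuclei of both libraries were integrated and clustered together, so each cluster holds nuclei matched between libraries by genes outside the members. Agreement of a cluster with itself is thus partly built in. Of the 184 sham on-calls, 172 (93.5%) were also on in injury, which is 96.1% of the 179 injury on-calls. Over all genes 93.9% of sham on-calls were shared, so the share among the members lay close to that of genes in general. The combination was identical in both libraries in 7 of 21 clusters, among them the relay-like Adgrf5/Zfp385c, with Pbx3, Pou2f1 and Pou6f1 among its members, and Col12a1/Fbln1, which had these and Lhx2, Lhx9, Pbx4 and Pou2f2. The 19 pairs on in only 1 library had a median absolute log2 ratio of 0.51, with 9 (47.4%) under 0.5. Of these 19, 3 were past 2-fold whatever their UMIs (the highest 2.67, Lhx9 in Corin/Samd3, from 2 sham and 36 injury UMIs, 0.72 to 5.77). These pairs were selected for lying on opposite sides of the threshold, which favours larger ratios. No share over all genes is given for such pairs. The 172 shared pairs, which were selected for being on in both libraries, had a median absolute log2 ratio of 0.14, with 158 (91.9%) under 0.5.

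Over the 285 pairs of a member and a cluster with at least 50 UMIs the median absolute log2 ratio was 0.18, against 0.17 over the 218447 such pairs of all genes, and 7 of the 285 were past 2-fold, against 1.13% of all pairs. Among the 26 members with at least 500 UMIs over the clusters, 16 (61.5%) had their highest level in the same cluster in both libraries, against 38.8% of the 14213 genes at that depth and 34 of 46 (73.9%) of the other identity factors that reached it. The median Pearson r of log2(CPM + 1) over the 21 clusters, sham against injury, was 0.933 for these members and 0.691 for those genes, and 0.927 for the 46 other identity factors.

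The whole profile of 73 members was then compared between libraries by the Pearson correlation of log2(CPM + 1). For 20 of 21 sham clusters the closest injury cluster was the same cluster. The r of a cluster with itself lay between 0.909 and 0.995, with a median of 0.989, against a median of 0.846 for pairs of different clusters. Each cluster was defined over both libraries together, so such a match is favoured by the clustering. The exception was Adamtsl3/Hcrtr2, whose profile was closest to C6/Snx31 (r = 0.972) and next to itself (r = 0.971). C6/Snx31 in sham lay almost as close to Adgrg6/Klhl14 in injury (r = 0.988) as to itself (r = 0.995), while Corin/Samd3 had the lowest own value (r = 0.909). Ranks in place of levels gave 14 of 21. The medial habenula-like clusters were closest to themselves and next to Ltbp1/Col5a3, and Colq/Lancl3 and Esr1/Otof were next to each other.

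**Figure D3:**
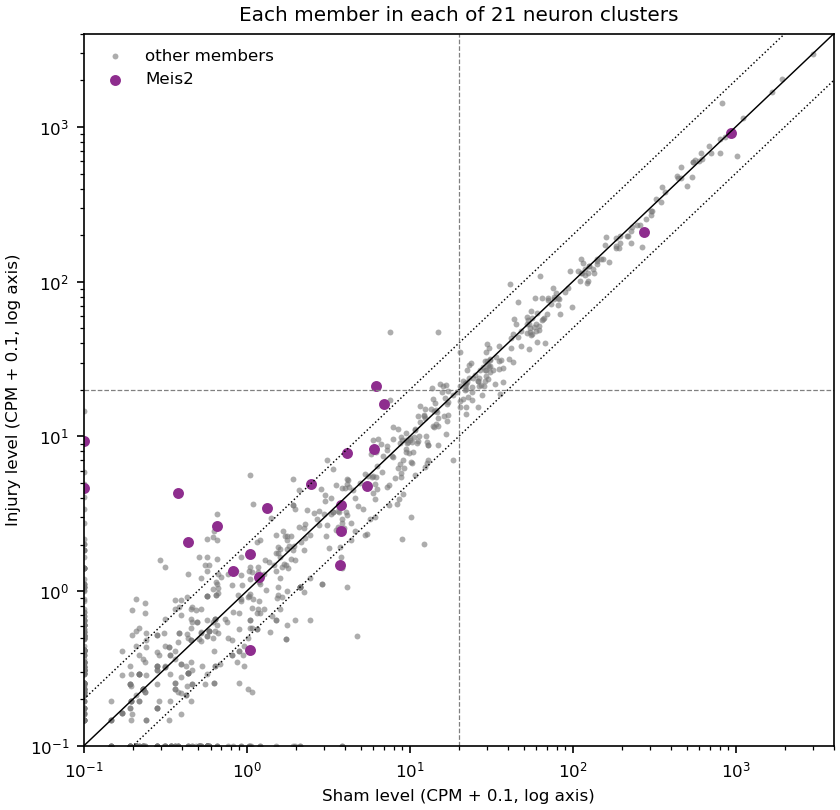
Injury level against sham level of every member in each of the 21 neuron clusters, in CPM + 0.1 on log axes, with pairs at 0 in both libraries left out. The solid line marks equal levels, dotted lines 2-fold, and dashed lines 20 CPM; most points above 20 CPM lie close to the solid line, and several Meis2 points (purple) below 20 CPM lie above the upper dotted line.

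Differences varied among the members of the habenula-like and reticular-like combinations. The log2 ratio of injury over sham was -0.33 for Pou4f1 in Pde11a/Kcng4 (-0.58 to -0.08), -0.21 in Chat/Chrna3 (-0.48 to 0.05), -0.18 in Pmfbp1/Popdc3 and -0.07 in Ltbp1/Col5a3, negative in all 4. Irx2 in the same clusters lay between -0.01 and 0.12. Six3 in Colq/Lancl3 was at 0.00 (-0.18 to 0.17) and Meis2 at -0.04 (-0.10 to 0.02). The interval of each of these values lay within 2-fold. Larger differences were found in lower members. Irx1 in Pmfbp1/Popdc3 measured 16.7 CPM in sham and 10.2 CPM in injury (-0.70, -1.26 to -0.16), while Irx5 there had a ratio of 0.51 (0.05 to 0.97). Meis3 in Colq/Lancl3 was lower in injury (-0.49, -0.91 to -0.07). Otx2 was lower in all 5 clusters with at least 50 UMIs (4 glutamatergic and 1 GABAergic), with the interval below 0 in 1, and in Ltbp1/Col5a3, from 12 and 8 UMIs, it was at -0.66 (-2.15 to 0.75).

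By class, the glutamatergic nuclei had 40 members with at least 50 UMIs, with a median log2 ratio of 0.00, against 0.01 over all 19455 genes at that depth. Of the 40, 1 member (Meis2) was past 2-fold, against 0.935% of all genes. In the GABAergic class 32 members had a median of -0.17, against 0.01 over 15344 genes, with 22 of the 32 below 0 and 0 past 2-fold, where 1.3% of all genes were. The median was -0.07 for 10 members in oligodendrocyte-like nuclei (-0.03 over all genes) and -0.07 for 9 in precursor-like nuclei (0.01 over all genes), with 0 past 2-fold in both, against 1.61% and 1.42% of all genes. In astrocyte-like nuclei the median of 12 members was -0.30 (0.00 over all genes) and 3 were past 2-fold, against 4.02% of all genes.

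**Figure D4:**
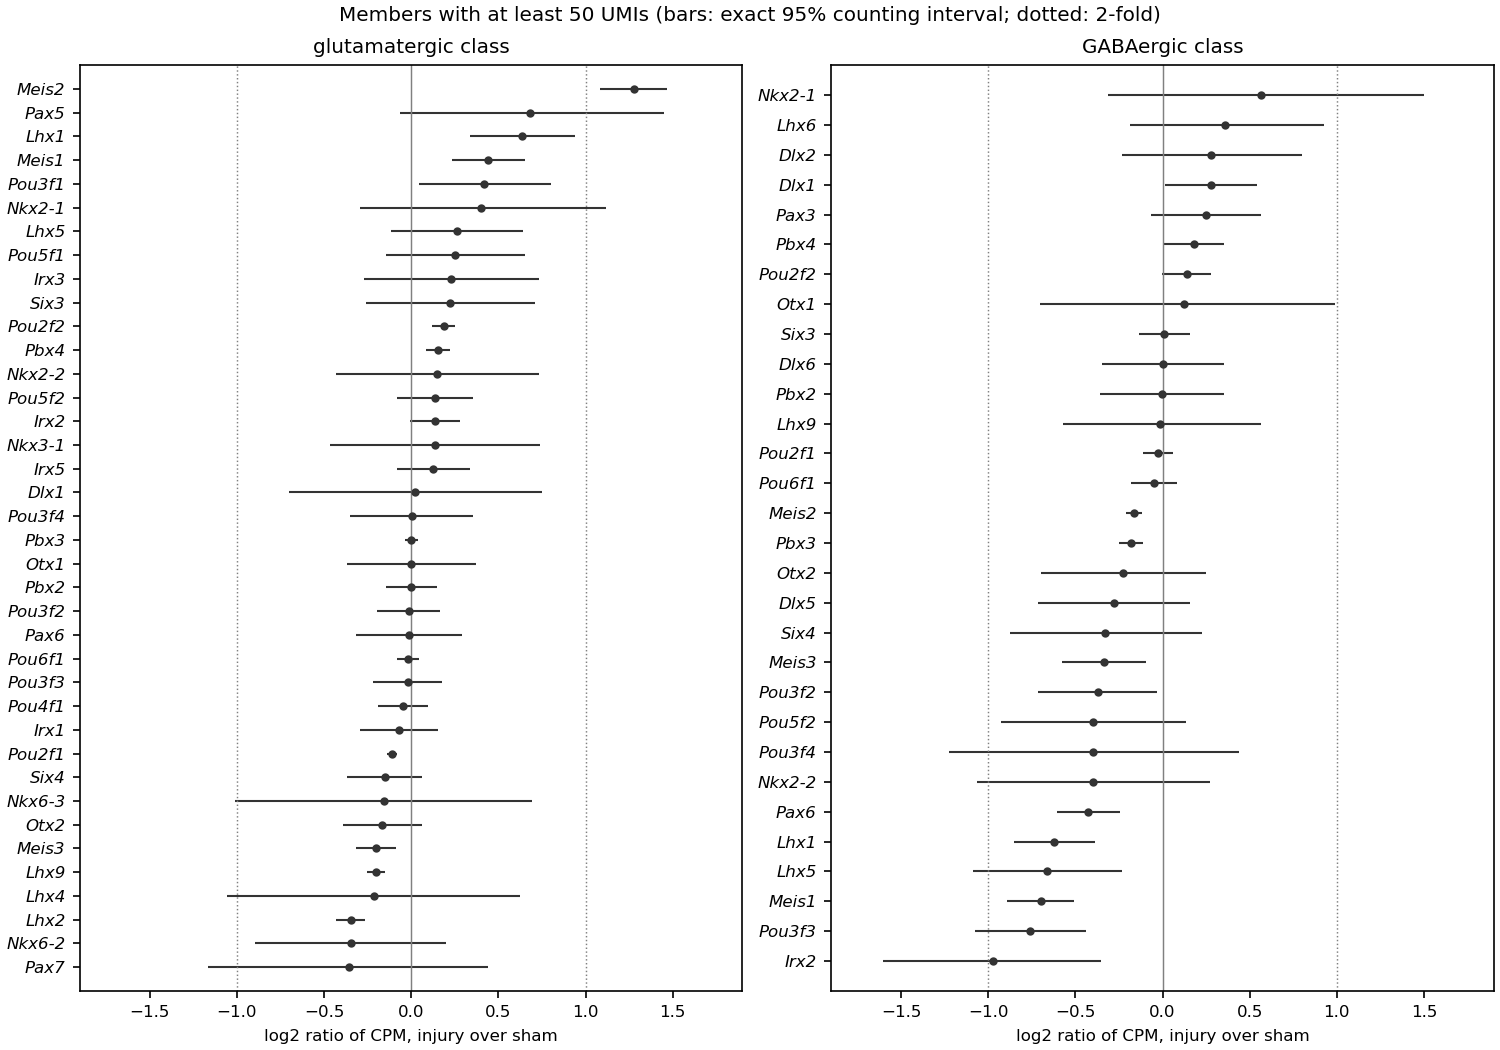
Log2 ratio of CPM, injury over sham (horizontal axis), of members with at least 50 UMIs in the glutamatergic class (38 of 40 members drawn) and the GABAergic class (30 of 32 drawn), with exact 95% counting intervals, a solid line at 0 and dotted lines at 2-fold. Meis2 in the glutamatergic class is the only point past a dotted line, and 20 of the 30 GABAergic points lie below 0.

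Among the glutamatergic members with many UMIs, Lhx2 measured 23.5 CPM in sham and 18.5 CPM in injury (log2 ratio -0.35, -0.43 to -0.26), and Lhx9 56.9 and 49.5 CPM (-0.20, -0.25 to -0.15). The lower level was found in most glutamatergic clusters: Lhx2 was lower in injury in 12 of the 13 with at least 50 UMIs, with the interval below 0 in 6, and Lhx9 in 15 of 17, with the interval below 0 in 7. The lowest ratios were -0.61 for Lhx2 in Adamtsl3/Hcrtr2 and -0.57 for Lhx9 in Adgrg6/Klhl14. Pbx3 was lower in 16 of 18 glutamatergic clusters, with a median log2 ratio of -0.21 over them, although the class as a whole measured 101 CPM in both libraries. Chat/Chrna3, where Pbx3 was highest, held 587 sham and 929 injury nuclei. The part of the mix of clusters in the class values was not tested. All clusters come from the same 2 libraries, so that the counts of clusters are not independent. None of these members was past 2-fold in these clusters. In the same class the 3 glutamatergic markers summed to 197 CPM in sham and 182 CPM in injury, and the 7 oligodendrocyte markers to 45.2 and 60.2 CPM. Their part in the Lhx values was not tested.

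Meis2 was the member past 2-fold in the glutamatergic class. It measured 2.91 CPM in sham (314 UMIs) and 7.04 CPM in injury (816 UMIs), a log2 ratio of 1.27 (1.09 to 1.47), at levels far below the 20 CPM threshold and below those of the GABAergic clusters. Meis2 was higher in injury in 14 of 19 glutamatergic clusters. It was past 2-fold with at least 50 UMIs in 4: Ttc6/Col11a1 (6.08 and 21.2 CPM, log2 ratio 1.80, where 0.92% of all genes were past 2-fold), C6/Snx31 (1.23 and 3.34 CPM, 1.44, against 0.617%), Sycp2l/Lypd6b (6.89 and 16.2 CPM, 1.23, against 0.586%) and Col12a1/Fbln1 (2.39 and 4.86 CPM, 1.03, against 0.532%).

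Few nuclei carried most Meis2 UMIs of Ttc6/Col11a1. In Ttc6/Col11a1 27 of 1917 sham nuclei and 73 of 2108 injury nuclei had a Meis2 UMI, and in injury 29 nuclei with at least 5 UMIs held 276 of the 339 Meis2 UMIs (81.4%), against 5 nuclei holding 59 of 86 in sham. Called doublets numbered 146 in sham and 345 in injury in that cluster and held 7 and 125 Meis2 UMIs. The share called in each whole library was set by its number of nuclei, so these numbers do not measure how often doublets formed. Without called doublets Meis2 in Ttc6/Col11a1 measured 6.11 and 16.3 CPM (log2 ratio 1.42, 1.04 to 1.81), and without nuclei of at least 5 Meis2 UMIs, a choice made on Meis2 itself after seeing the data, 1.92 and 4.01 CPM. In Sycp2l/Lypd6b called doublets held 54 of 58 Meis2 UMIs in sham and 151 of 170 in injury, and the level without them was 0.600 and 2.27 CPM (log2 ratio 1.92, 0.33 to 3.94). C6/Snx31 without doublets was at 0.786 and 1.92 CPM (1.29, 0.36 to 2.30). In Col12a1/Fbln1 the direction turned without doublets (1.99 and 1.51 CPM, log2 ratio -0.39, -1.59 to 0.76). Over the glutamatergic class the ratio without doublets was 0.999 (0.73 to 1.27), from 1.82 and 3.63 CPM, just under the 2-fold line.

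Other measures moved with Meis2. The GABAergic markers Gad1, Gad2 and Slc32a1 summed to 9.41 CPM in sham and 12.1 CPM in injury in the glutamatergic class, with all 3 higher, and their sum was higher in injury in 17 of the 19 clusters. In Ttc6/Col11a1 they summed to 22.4 and 28.6 CPM. The rise was not particular to GABAergic markers, as 7 oligodendrocyte markers summed to 45.2 and 60.2 CPM in the class, with all 7 higher, and were higher in injury in 20 of the 21 neuron clusters. Over all nuclei kept Meis2 measured 53.7 CPM in sham and 90.1 CPM in injury, and the injury library held the 427 nuclei of Col6a3/Myo5b, in which Meis2 was at 864 CPM. The 10 leading genes of Col6a3/Myo5b summed to 21.7 CPM in sham and 30.01 CPM in injury in the glutamatergic class, with all 10 higher. By cluster their log2 ratio was 1.36 in C6/Snx31 and 0.84 in Sycp2l/Lypd6b, but 0.12 in Ttc6/Col11a1, where Meis2 was at 1.80, and 0.08 in Col12a1/Fbln1. The part of free RNA and of these other nuclei in the Meis2 difference was not tested.

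**Figure D5:**
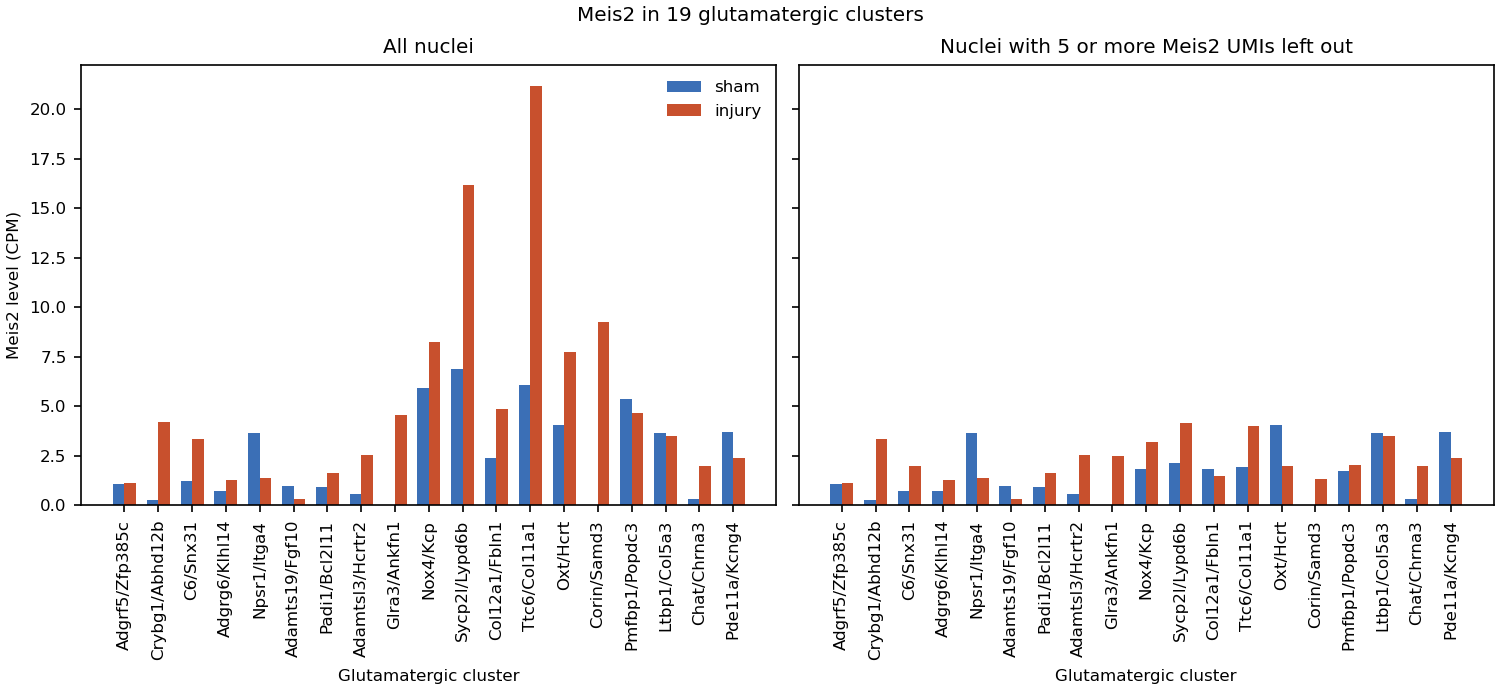
Meis2 level in CPM (bars from 0, sham blue and injury red) in the 19 glutamatergic clusters, with all nuclei on the left and without nuclei of 5 or more Meis2 UMIs on the right. On the left the injury bar of Ttc6/Col11a1 reaches 21.2 CPM against 6.08 CPM in sham; on the right all bars lie below 5 CPM and Ttc6/Col11a1 has 4.01 against 1.92 CPM.

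In single neuron clusters the other members past 2-fold were few. Pou2f2 measured 40.9 CPM in sham and 96.4 CPM in injury in Corin/Samd3 (log2 ratio 1.24, 0.31 to 2.30), the cluster with 13.0% of all genes past 2-fold. Otx2 in Nox4/Kcp measured 5.38 and 2.26 CPM (-1.25, -2.16 to -0.41, from 41 and 17 UMIs, where 0.75% of all genes were past 2-fold), and Six4 in Ttc6/Col11a1 2.33 and 1.12 CPM (-1.06, -1.97 to -0.19, from 33 and 18 UMIs). Among the largest differences short of 2-fold were Irx1 in Ttc6/Col11a1 (3.11 and 1.81 CPM, -0.78) and Irx2 in Esr1/Otof (4.50 and 2.34 CPM, -0.95, from 46 and 39 UMIs). Without called doublets Otx2 in Nox4/Kcp and Six4 in Ttc6/Col11a1 had under 50 UMIs, with ratios of -1.15 and -1.37.

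Several members were lower in injury in Esr1/Otof, the GABAergic cluster with the most nuclei (1483 in sham and 2444 in injury). Of its 32 members with at least 50 UMIs, 21 were lower and 11 higher, with a median log2 ratio of -0.15, against 0.007 over 14674 genes. Of the 32, 0 were past 2-fold, against 1.56% of all genes. In this cluster Meis1 measured 35.6 CPM in sham (32.0 to 39.4) and 18.7 CPM in injury (16.7 to 20.9), a log2 ratio of -0.92 (-1.15 to -0.70). Lhx1 measured 27.9 and 18.6 CPM (-0.59, -0.82 to -0.35), Pax6 42.9 and 30.3 CPM (-0.50, -0.69 to -0.31) and Meis2 273 and 209 CPM (-0.39, -0.46 to -0.32). Meis1 and Lhx1 thereby crossed from on to off. The share of nuclei with a UMI was lower too, from 12.8% to 7.73% for Meis1 and from 15.0% to 9.82% for Lhx1, at similar depths (medians of 6121 and 6029 UMIs). In the reticular-like Colq/Lancl3, Meis1 measured 21.8 and 22.0 CPM. Dlx1 (13.8 and 17.4 CPM) and Pax3 (12.3 and 14.9 CPM) in Esr1/Otof had the opposite sign. Other lists moved in the same cluster. Gad1, Gad2 and Slc32a1 summed to 473 CPM in sham and 418 CPM in injury, with 0 of 3 higher in injury, and 7 oligodendrocyte markers to 60.7 and 88.0 CPM, with 6 of 7 higher. The oligodendrocyte markers were higher to a like extent in Colq/Lancl3 (38.8 and 56.4 CPM). Meis2 UMIs were concentrated in part of the cluster, as 392 of 1483 sham nuclei had one and 240 nuclei with at least 5 held 2458 of the 2796. The part of these lists and of a different mix of neurons in the member values was not tested.

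In astrocyte-like nuclei Irx2 measured 55.1 CPM in sham (25 UMIs) and 20.7 CPM in injury (30 UMIs), a log2 ratio of -1.41 (-2.23 to -0.58). Meis2 measured 17.6 CPM (8 UMIs) and 47.0 CPM (68 UMIs), a ratio of 1.41 (0.35 to 2.68), and Pbx3 13.2 CPM (6 UMIs) and 33.8 CPM (49 UMIs), a ratio of 1.36 (0.13 to 2.87). Beside these, Pou3f3 was at -0.66 (-1.21 to -0.09), Pou3f2 at -0.61 (-1.21 to 0.00), Pou6f1 at -0.46, Otx2 at -0.40, Meis1 at -0.31, Pou2f1 at -0.29 and Pax6 at 0.09. In the same nuclei the 10 leading genes of the Meis2-rich Col6a3/Myo5b, found almost only in injury, summed to 168 CPM in sham and 295 CPM in injury, with 7 higher, and 8 dentate granule markers to 119 and 179.6 CPM, with 6 higher. Their part in the Meis2 value was not tested. The median depth also differed in this class, at 1892 UMIs per nucleus in sham and 2550 in injury. In oligodendrocyte-like nuclei Meis1 was at -0.05.

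Beyond the members, 70 other identity factors from a list chosen with earlier results known gave 463 on-calls in sham and 460 in injury, 446 of them shared (96.3% and 97.0%, against 93.9% and 94.9% over all genes). By profile 21 of 21 clusters were closest to themselves. Of 622 pairs of these factors and a cluster with at least 50 UMIs, 29 were past 2-fold, against 1.13% of all pairs. Rora, Foxp1, Cux1, Cux2, Zfhx3 and Zfhx4 were on in all 21 clusters in both libraries, while Lmx1a was on only in Ttc6/Col11a1 (56.0 and 46.6 CPM) and Neurod1 only in Chat/Chrna3 (33.7 and 32.5 CPM). In the glutamatergic class 1 of 58 was past 2-fold, Isl1 at 0.426 and 1.09 CPM, and in the GABAergic class 2 of 51, against 0.935% and 1.3% of all genes.

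The promoters shown above were also searched as a group. The set of RefSeq promoters searched did not cover every gene or chromosome, and held those of 52 of the 73 members. Both strands of the 250 bases before the start were read. TGACAG was found in 11 (21.2%) of the 52, among them Six3, Pou4f1 and Lhx9, against 4851 of the 27025 genes in the set. The homeodomain motif TAATTA was found in 1 of 52 (Otx2), against 5.65% of the genes in the set, and the octamer ATGCAAAT of POU proteins in 0, against 1.81%. A match is a run of letters and not a site of binding, and genes with several starts were counted if any window matched.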

How the data were processed

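The authors deposited 1 table of UMI counts per library, with genes in rows and barcodes in columns. Per the labels and the study's methods these counts came from Cell Ranger 6.0.2 on mm10, and whether strand was used is not given in the sources used here. The study's filter was applied (nuclei with over 2% mitochondrial UMIs, over 7500 or under 200 genes removed), leaving 16373 sham and 21777 injury nuclei. Counts were log-normalized (scale 10000), integrated and clustered with Seurat 5.3.0 in R 4.3.3 on 30 components at Louvain resolution 0.5. Of 2000 selected genes 1959 were used, since members and other identity factors were left out. Nuclei with the highest Scrublet scores were called doublets (2179 sham and 3871 injury nuclei, 13.31% and 17.78%) and kept, except in clusters with over 50% of them, which were dropped. The share called was set in advance from the number of nuclei in each library (13.1% and 17.4% expected). Its higher value in injury is therefore not a finding. A cluster was named from markers only with at least 3 of them, by thresholds set after seeing the data, and not where its depth was under 1 part in 3 of the library's with no marker among its 10 leading genes. UMIs were summed per cluster or class and library and divided by the total (CPM). Past 2-fold means an absolute log2 ratio of at least 1 with at least 50 UMIs over both libraries. Intervals are exact 95% Poisson, conditional binomial or Clopper-Pearson intervals. Genes named were those with a mean of both libraries of 20 CPM or more in a cluster or class, those past 2-fold in a class, and the 5 largest ratios in each direction in clusters. Pax3, Otx1, Dlx2, Dlx5, Dlx6, Irx6, Six2 and Nkx2-4 fall outside that rule and were named after their values were seen. Lhx6 met that rule only through 2 UMIs in the 2 sham nuclei of Col6a3/Myo5b. Members and gene lists were chosen with earlier results of these data known. The ratio script was tested on simulated data. TMM factors came from edgeR 4.0.16. Of the members, 31 overlap a gene on the opposite strand. Shares were also given with nuclei thinned to 3000 UMIs, which left out 2372 sham and 4260 injury nuclei. Values of some single genes, which enter the counts, are not reported here.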

Additional observations from a re-analysis of the deposited data

Results flagged for a closer look

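Dlx1, a homeobox gene of forebrain GABAergic neurons, measured 44.6 CPM (38.8 to 51.1, 207 UMIs) in Col6a3/Myo5b, a GABAergic cluster of 427 injury and 2 sham nuclei that entered no comparison. This level was above those of every sham neuron cluster of at least 50 nuclei, the highest of which was 13.8 CPM in Esr1/Otof. A Dlx1 UMI was found in 30.7% of its nuclei (26.3 to 35.3), at a median depth of 9288 UMIs, and in 11.7% after thinning. Called doublets made up 35.0% of the cluster.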

How the results depend on the processing

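No paired analysis was possible because the labels give 1 sample per group. The on-calls and the profile comparison stayed within 1.5 times the values reported under each alternative run, with 91.3% to 96.0% of sham on-calls shared, and with the fewest clusters closest to themselves under ranks (14 of 21). Called doublets left out gave 0 members past 2-fold in the glutamatergic class, 1 in the GABAergic class and 1 in precursor-like nuclei, 2 pairs of a member and a cluster in place of 7, and a glutamatergic median log2 ratio of 0.0455. Meis2 was then at 0.999 in the glutamatergic class, and the other 5 pairs had under 50 UMIs. A minimum of 20 UMIs gave 3 glutamatergic and 1 GABAergic member past 2-fold, 25 pairs (against 2.28%, 3.37% and 3.48% of all genes or pairs) and a glutamatergic median of 0.0938, and a minimum of 200 UMIs gave 0 members in astrocyte-like nuclei, 2 pairs and a GABAergic median of -0.0506. At a log2 threshold of 0.5 there were 3 glutamatergic, 7 GABAergic, 1 precursor-like and 5 astrocyte-like members and 36 pairs, against 8.12%, 9.65%, 15.4%, 22.9% and 10.7% of all genes or pairs. Equal weight for each cluster gave 3 glutamatergic members. Clustering without integration and mean CPM of single nuclei each gave 1 GABAergic member, and resolution 1 a GABAergic median of -0.1144. Apart from the minimum of 20 UMIs and the threshold of 0.5, no share of all genes is given for these runs. Their counts of members and pairs therefore have no background here. No ratio past 2-fold in a class changed sign. Of the ratios of named members in a class, 474 stayed within their counting interval under an alternative and 21 moved outside it. Thinning moved 113 shares of nuclei with a UMI outside their interval and 7 stayed within it. Where no reason is given, the cause was not tested. Depth limits members under 50 UMIs, for which no ratio is given beside those named.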

Other observations

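The clusters found almost only in injury entered no comparison. In Col6a3/Myo5b Meis2 measured 864 CPM (838 to 892), near its level in the reticular-like Colq/Lancl3 (908 CPM in injury), while Six3 was at 3.23 CPM (1.81 to 5.33) against 114 CPM there. Dlx6 was at 12.1 CPM and Dlx2 at 6.25 CPM. The cortical glutamatergic-like Npr3/Ccdc3 held Meis2 at 74.7 CPM (65.9 to 84.2), Lhx2 at 26.3 CPM (21.2 to 32.2) and Pou3f3 at 21.8 CPM (17.2 to 27.2), with 0 UMIs of Dlx1, which allows a level of up to 0.848 CPM. The dentate granule-like Dsp/Stra6 held Meis2 at 29.1 CPM (20.9 to 39.5) beside the widespread Pbx and Pou genes. These values have no sham libraries to compare with, and the tissue taken cannot be told apart from the injury.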
